A study of Mus musculus with 2 samples.

Results

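The AP-1 and immediate early genes examined here were Fos, Fosb, Jun, Junb, Jund, Egr1, Ier2, Atf3, Dusp1 and Nr4a1. All 10 were found by symbol in the count tables, among 31053 genes, and their levels were described by cell lineage and between the libraries with and without butyrate. The set was selected on measured values of these same cells. These were the level by lineage and the ratio between the libraries, which differed in sign between B and T cells. The levels and ratios below are therefore a description and none was tested. Cells came from the mediastinal lymph nodes, which drain the lung, of wild-type C57/B6J mice with asthma induced by ovalbumin (OVA). The mice had received 50 μg of OVA with alum by intraperitoneal injection on days 0 and 7 and OVA intranasally on days 14 to 16, and nodes were taken on day 17. The libraries held cells of mice without and with butyrate, each pooled from 4 mice, and the route and dose of butyrate for this experiment were not stated in the sources used here. There was 1 library per condition and no group without asthma, so differences between mice, between nodes, between capture runs and between treatments cannot be told apart.

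Immediate early genes are transcribed within minutes of a signal and need no new protein to be switched on. Fos and Jun family proteins pair through leucine zippers to form AP-1, which binds DNA and controls genes of activation and cytokine production in lymphocytes, while other members limit the signal that induced them. Their transcripts are short lived, they are induced by antigen receptors through calcium and MAP kinases, and they are also known to be induced while tissue is dissociated.

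The members were grouped by role, with positions on mouse build GRCm38 from GENCODE. Fos (ENSMUSG00000021250, chr12:85473890-85477273, plus strand) and Fosb (ENSMUSG00000003545, chr7:19302696-19310051, minus strand) encode the Fos partners of AP-1. Jun (ENSMUSG00000052684, chr4:95049034-95052222, minus strand), Junb (ENSMUSG00000052837, chr8:84974484-84978718, minus strand) and Jund (ENSMUSG00000071076, chr8:70698949-70700616, plus strand) encode the Jun partners, of which JunD is the form most present in resting cells. Atf3 (ENSMUSG00000026628, chr1:191170296-191218039, minus strand) encodes a stress-induced relative that pairs with Jun proteins. Egr1, a zinc finger factor on chromosome 18, and Nr4a1 (ENSMUSG00000023034, chr15:101254269-101274795, plus strand), an orphan nuclear receptor used as a reporter of antigen receptor signalling, are transcription factors outside AP-1. Ier2 (ENSMUSG00000053560, chr8:84661331-84662852, minus strand) encodes a nuclear protein, and Dusp1 (ENSMUSG00000024190, chr17:26505590-26562128, minus strand) encodes a phosphatase that removes phosphate from MAP kinases.

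The gene models were compared with those of protein-coding genes that had an annotated 3′ untranslated region. Jun, Junb, Jund and Ier2, 4 of the 10, had a single exon, against 4.89% of 20668 genes, while Nr4a1 had 8 exons, beside a median of 7. The pentamer ATTTA, the core of AU-rich elements that mark short-lived transcripts, stood in the 3′ untranslated region of 9 of 10, all but Ier2. The median over the 20668 genes was 1 copy, so presence alone is common. At least 3 copies stood in 5 of the 10 members, against 32.1% of genes. The density of ATTTA was above the median of the 20668 genes in 8 of 10, with a median of 2.89 per 1000 bases against 1.12. Dusp1 had 5.80, Nr4a1 5.52 and Fos 4.91 per 1000 bases, while Fosb had 0.47.

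Promoters are shown because known signals to these genes act through short elements close to the start site, and because members that moved together could be compared at this level. RefSeq windows of 300 bases (250 before and 50 after the start, build GRCm38.p6) matched 8 of 10 members, and those of Fos, Fosb, Junb, Dusp1 and Nr4a1 are printed 5′ to 3′ on the strand of the gene. Capitals mark matches on either strand to TGACG (the core of the cAMP response element, whose full form is TGACGTCA), TATAAA (the TATA box) or GCGNGGGCG (the EGR site), and the full element overlaps the core by construction.
Fos (chr12:85473640-85473939, plus strand): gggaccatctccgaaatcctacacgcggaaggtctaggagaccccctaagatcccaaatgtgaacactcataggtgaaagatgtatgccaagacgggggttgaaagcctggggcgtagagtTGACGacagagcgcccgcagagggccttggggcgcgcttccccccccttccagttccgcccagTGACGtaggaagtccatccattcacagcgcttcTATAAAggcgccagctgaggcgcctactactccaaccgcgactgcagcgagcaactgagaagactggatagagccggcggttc
Fosb (chr7:19309996-19310295, minus strand): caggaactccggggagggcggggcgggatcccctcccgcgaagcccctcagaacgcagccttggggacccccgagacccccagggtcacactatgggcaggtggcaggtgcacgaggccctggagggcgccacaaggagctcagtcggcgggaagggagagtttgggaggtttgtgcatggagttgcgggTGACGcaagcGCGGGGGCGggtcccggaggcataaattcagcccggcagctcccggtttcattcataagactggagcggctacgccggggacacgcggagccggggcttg
Junb (chr8:84978699-84978998, minus strand): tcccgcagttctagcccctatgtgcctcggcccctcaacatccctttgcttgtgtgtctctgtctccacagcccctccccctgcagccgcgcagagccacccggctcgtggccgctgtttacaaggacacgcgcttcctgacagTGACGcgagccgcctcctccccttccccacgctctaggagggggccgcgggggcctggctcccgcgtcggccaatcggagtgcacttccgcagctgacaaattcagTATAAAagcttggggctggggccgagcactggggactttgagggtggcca
Dusp1 (chr17:26508423-26508722, minus strand): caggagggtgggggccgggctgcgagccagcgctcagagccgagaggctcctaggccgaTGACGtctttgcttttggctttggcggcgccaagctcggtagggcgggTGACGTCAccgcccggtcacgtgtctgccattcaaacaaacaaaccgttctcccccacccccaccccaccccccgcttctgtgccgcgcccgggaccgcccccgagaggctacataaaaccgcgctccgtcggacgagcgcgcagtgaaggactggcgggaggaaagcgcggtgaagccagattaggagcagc
Nr4a1 (chr15:101266596-101266895, plus strand): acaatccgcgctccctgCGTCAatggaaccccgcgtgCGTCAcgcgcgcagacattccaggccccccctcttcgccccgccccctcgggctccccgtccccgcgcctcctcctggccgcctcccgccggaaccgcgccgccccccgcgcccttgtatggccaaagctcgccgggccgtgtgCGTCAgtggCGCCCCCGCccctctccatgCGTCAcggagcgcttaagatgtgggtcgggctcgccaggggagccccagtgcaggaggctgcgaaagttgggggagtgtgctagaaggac

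The TGACG core was present in 6 of the 8 windows, in Fos, Fosb, Junb, Atf3, Dusp1 and Nr4a1, against 20.9% of 32544 promoters of the same length. The full TGACGTCA was present in Dusp1 alone of the 8, against 1.80% of promoters. GCGNGGGCG was present in Fosb and Nr4a1, against 5.60%, and TATAAA in Fos and Junb, against 13.6%. In Junb TATAAA began at the RefSeq start itself. The AP-1 site TGANTCA was in 0 of the 8 windows and in 7.79% of all promoters, and the CArG box, which serum response factor binds, was in 0 of the 8 and in 1.64%. The Jund window (chr8:70697489-70697788, plus strand) ended before the start of the gene model given above, so its count of 0 matches does not cover that start. The windows of Atf3 (chr1:191183284-191183583, minus strand), Dusp1 and Nr4a1 lay inside the gene spans given above and did not reach their starts. Matches in those windows therefore belong to a RefSeq start within the gene span. These matches describe letters in a short window, and elements farther from the start were not searched.

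Cells were assigned to lineages by UMIs (unique molecular identifiers, each counting 1 captured transcript) of lineage genes. B cells had a UMI of Cd79a and none of Cd3e, Cd4 or Cd8a, and numbered 4096 without and 3841 with butyrate. Among cells with a UMI of Cd3e and none of Cd79a, gates were set for conventional CD4+ T cells (878 and 776 cells, with Cd4 and neither Cd8a nor Foxp3), regulatory T cells (159 and 142 cells, with Foxp3 and no Cd8a) and CD8+ T cells (1454 and 1462 cells, with Cd8a and neither Cd4 nor Foxp3). The other 1008 and 789 cells with Cd3e and no Cd79a entered none of these gates. The names were checked on genes the gates did not use. Cd79b was found in 98.5% and 98.7% of B cells and Cd3d in 95.8% to 99.9% of the cells of the T cell gates. Cd8b1 was in 98.0% and 98.2% of CD8+ T cells, and regulatory T cells had Ikzf2 in 80.5% and 76.1% and Il2ra in 52.8% and 59.2%. Cd79b was also in 7.97% to 20.4% of cells of the T cell gates, and Cd3d in 4.37% and 5.23% of B cells. Cd8b1 was in 7.63% to 11.3% of conventional CD4+ and regulatory T cells. Whether such UMIs came from free RNA or other cells was not tested. The libraries held 9681 and 8932 barcodes and 59176459 and 58381292 UMIs, 25 barcode sequences occurred in both, and 8774 and 8013 cells were kept.

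Levels are given as CPM, the UMIs of a gene in a gate divided by all UMIs of that gate and scaled to a fixed total, with an exact Poisson interval at 95%. Intervals and limits cover counting error only, and since UMIs of these genes are concentrated in some cells and all cells of a library share 4 mice, the spread between mice may be larger. Depth per cell differed between gates and libraries, with median UMIs of 4393.5 and 4612 in B cells, 5245 and 6051 in conventional CD4+, 4777 and 5339.5 in regulatory and 6741 and 7808 in CD8+ T cells, without and with butyrate respectively. Shares of cells were therefore also computed after each cell was thinned to 2000 UMIs, which left out 47 and 22 B cells and at most 4 cells of any T cell gate.

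In B cells, 7 of the 10 genes were higher with butyrate and 3 were lower, with Egr1 the farthest from 0. In conventional CD4+ T cells, all 9 measured genes were lower with butyrate. CD8+ T cells held 6 lower and 3 higher of 9, and regulatory T cells 4 lower and 5 higher of 9. Of all measured genes, 61.4% were above 0 in B cells, 51.9% in conventional CD4+, 54.1% in CD8+ and 50.6% in regulatory T cells. The count of members in B cells thus lay near the share of all genes. Of these 4 gates, Atf3 passed the minimum of 50 UMIs over both libraries in B cells only. The median log2 ratio of the measured members was 0.13 in B cells, -0.28 in conventional CD4+ T cells, -0.06 in CD8+ T cells and 0.16 in regulatory T cells, beside medians over all genes between 0.0043 and 0.026. The T cells outside these gates had log2 ratios of 0.49 for Fosb, 0.35 for Egr1, 0.25 for Nr4a1 and 0.06 for Jund. Those for Jun, Dusp1, Fos, Junb and Ier2 were -0.29, -0.28, -0.21, -0.05 and -0.02. The intervals of Nr4a1, Junb and Ier2 included 0.

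**Figure D1:**
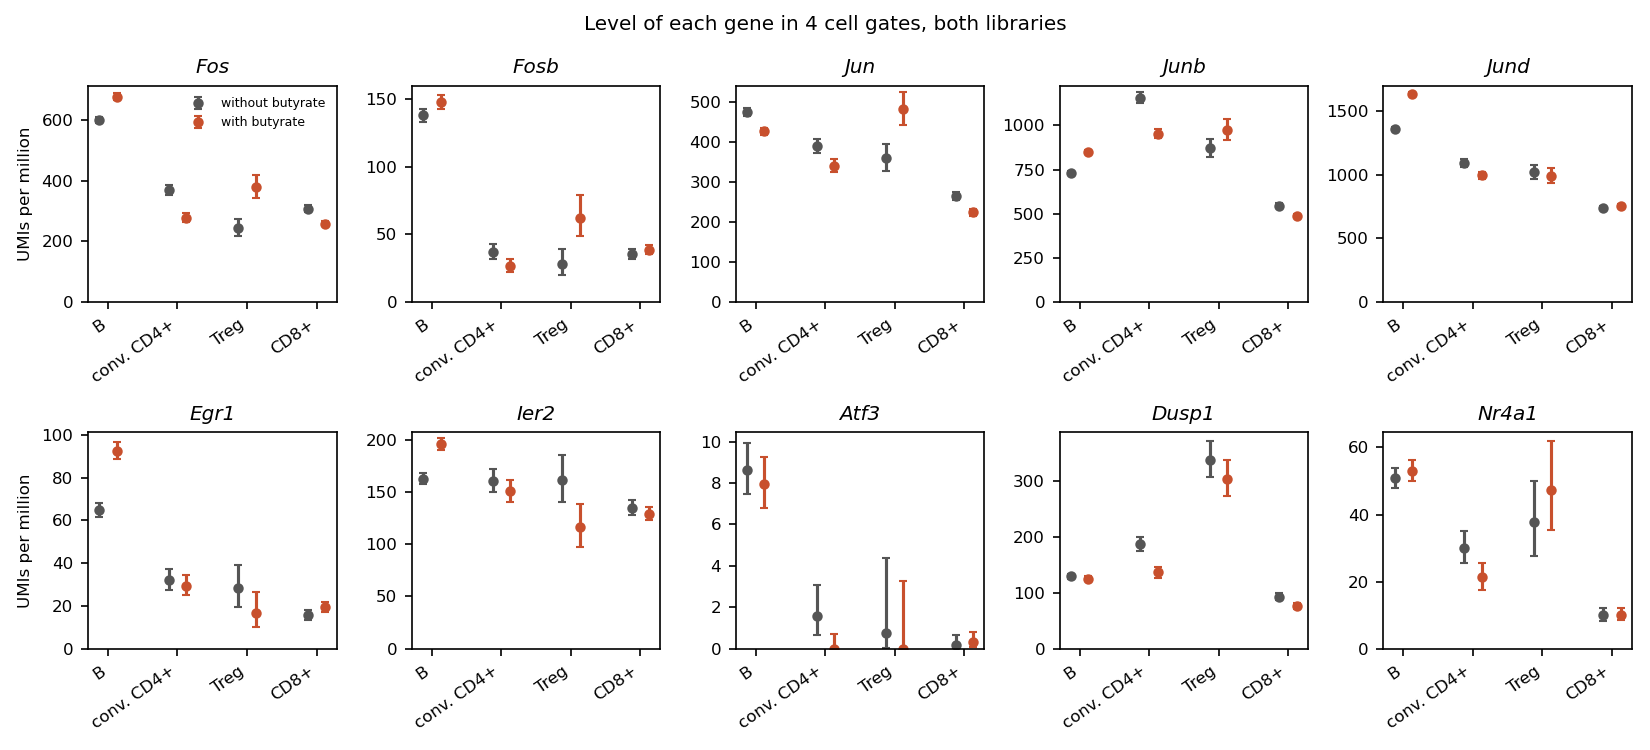
Level of each gene (CPM, linear axis from 0) in B cells, conventional CD4+ T cells, regulatory T cells (Treg) and CD8+ T cells, without butyrate in grey and with butyrate in orange. Points are 1 library each and bars are exact Poisson 95% intervals (counting error only). Fos, Fosb, Jund and Egr1 are highest in B cells in both libraries, Dusp1 is highest in regulatory T cells, and Junb in conventional CD4+ T cells stands at 1158 without and 953 with butyrate, while in B cells it stands at 729 and 849.

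Fos was at 599 CPM in B cells without butyrate and 677 with butyrate. It was at 369 and 278 in conventional CD4+ T cells, in CD8+ T cells at 308 and 259, and in regulatory T cells at 245 and 380. B cells thus held the highest level in both libraries, and the order of the T cell gates was not the same, with regulatory T cells lowest without butyrate and highest of the T cell gates with it. Without butyrate, no intervals of these 4 levels overlapped, and with butyrate those of conventional CD4+ and CD8+ T cells did. The log2 ratio of Fos, with over without butyrate and with a pseudocount of 10 CPM, was 0.17 (0.14 to 0.21) in B cells, -0.40 (-0.49 to -0.30) in conventional CD4+ and -0.24 (-0.31 to -0.17) in CD8+ T cells. The share of thinned cells with a Fos UMI moved the same way, from 46.9% to 53.3% of B cells, from 41.8% to 32.3% of conventional CD4+ and from 35.8% to 29.8% of CD8+ T cells. No gate here is known to lack Fos, so no share could be set as a background of free RNA.

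Fosb, which like Fos needs a Jun partner to bind DNA, was at 138 CPM in B cells without and 147 with butyrate. Its T cell levels lay between 26.7 and 62.4 in both libraries, so B cells were above every T cell gate. Fosb was at 36.9 and 26.7 in conventional CD4+ T cells, a log2 ratio of -0.35 (-0.60 to -0.11), but after thinning 55 and 54 UMIs were left and the log2 ratio was 0.12. Its direction in those cells therefore changed with thinning, a single random draw that also left fewer UMIs. Weighting of cells by depth and loss of counts were not told apart. In CD8+ T cells Fosb was at 35.7 and 38.9, with a log2 ratio of 0.10 (-0.06 to 0.25).

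The Jun genes did not follow a single pattern. Junb was at 729 and 849 CPM in B cells (log2 ratio 0.22, 0.19 to 0.25), and at 1158 and 953 in conventional CD4+ T cells (-0.28, -0.33 to -0.22). Without butyrate it stood 0.66 (0.62 to 0.70) higher on the log2 scale in conventional CD4+ T cells than in B cells, and with butyrate 0.17 (0.12 to 0.21) higher, so the gates were closer in the library with butyrate. In CD8+ T cells Junb was at 547 and 487, and the share of thinned cells with a Junb UMI in conventional CD4+ T cells was 79.9% and 72.6%.

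Jund was at 1355 and 1632 CPM in B cells, with a log2 ratio of 0.27 (0.24 to 0.29). It was at 1092 and 997 in conventional CD4+ T cells (-0.13, -0.18 to -0.08), and in CD8+ T cells at 739 and 757 (0.03, -0.01 to 0.08). The order from B to conventional CD4+ to CD8+ T cells held in both libraries, and regulatory T cells at 1021 and 992 could not be separated from conventional CD4+ T cells at 1092 and 997, since the intervals overlapped in both libraries.

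Jun was lower with butyrate in B cells, at 475 and 427 CPM, a log2 ratio of -0.15 (-0.19 to -0.11). The share of thinned B cells with a Jun UMI moved the other way, from 37.2% to 40.2%. Without butyrate, the 1% of B cells with most Jun UMIs held 22.0% of them and up to 195 in a cell, and with butyrate 10.9% and up to 58. Without those cells of each library the log2 ratio of Jun was 0.013, and with each cell thinned it was 0.037, so the lower sum rested on a small number of cells. In T cells Jun was lower with butyrate in the conventional CD4+ gate, at 390 and 341 (-0.19, -0.28 to -0.10), and in the CD8+ gate, at 265 and 224 (-0.23, -0.30 to -0.16).

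Egr1 was at 64.8 CPM in B cells without and 92.6 with butyrate, and its log2 ratio of 0.46 (0.37 to 0.54) was the highest of the members in that gate. The share of thinned B cells with an Egr1 UMI was 7.16% (6.39 to 8.0002, Clopper-Pearson) without and 10.6% (9.62 to 11.6) with butyrate. Egr1 was at 32.0 and 29.4 in conventional CD4+ T cells and in CD8+ T cells at 15.7 and 19.4. Both T cell gates were below B cells in both libraries, and the log2 ratios, -0.09 (-0.34 to 0.16) and 0.19 (0.0082 to 0.38), rested on 152 to 239 UMIs a library.

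Ier2 was at 162 and 196 CPM in B cells (log2 ratio 0.25, 0.19 to 0.32). The level in conventional CD4+ T cells was 161 and 151, and in CD8+ T cells 135 and 129, with log2 ratios of -0.09 (-0.22 to 0.05) and -0.06 (-0.16 to 0.04). Without butyrate the levels of B, conventional CD4+ and regulatory T cells (162) could not be separated, and with butyrate B cells were above all T cell gates. The share of thinned B cells with an Ier2 UMI was 25.02% and 29.9%.

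Dusp1, the MAP kinase phosphatase, was at 129 and 126 CPM in B cells, with a log2 ratio of -0.04 (-0.11 to 0.03). Conventional CD4+ T cells had Dusp1 at 187 and 136, and its log2 ratio of -0.43 (-0.56 to -0.30) was the lowest of the members there. In CD8+ T cells it was at 93.2 and 76.0 (-0.26, -0.38 to -0.15) and in regulatory T cells at 338 and 304 (-0.15, -0.35 to 0.05). Regulatory T cells thus held the highest Dusp1 level and CD8+ T cells the lowest in both libraries, while the levels of conventional CD4+ T cells and B cells with butyrate, 136 and 126, had overlapping intervals (126 to 147 and 121 to 130.4).

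Nr4a1 was at 50.8 and 53.1 CPM in B cells, with a log2 ratio of 0.05 (-0.05 to 0.15) that includes 0. It was at 30.1 and 21.3 in conventional CD4+ T cells (-0.36, -0.61 to -0.10), and the share of thinned cells with a UMI was 4.69% and 4.01%. In CD8+ T cells it was at 10.2 and 10.1, the lowest of the gates in both libraries. Atf3 was at 8.63 and 7.97 in B cells, where the 1% of cells with most Atf3 UMIs held 63.0% and 66.9% of them. In conventional CD4+ T cells without butyrate 8 Atf3 UMIs lay in 3 cells, and with butyrate it was found in 0 of 776 cells, which allows a share of cells with a UMI of up to 0.387% and sets no limit on cells that express the gene below detection. Atf3 was far higher in the 67 and 69 cells with no Cd79a or Cd3e UMI and at least 2 myeloid markers, at 164 and 159 CPM.

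**Figure D2:**
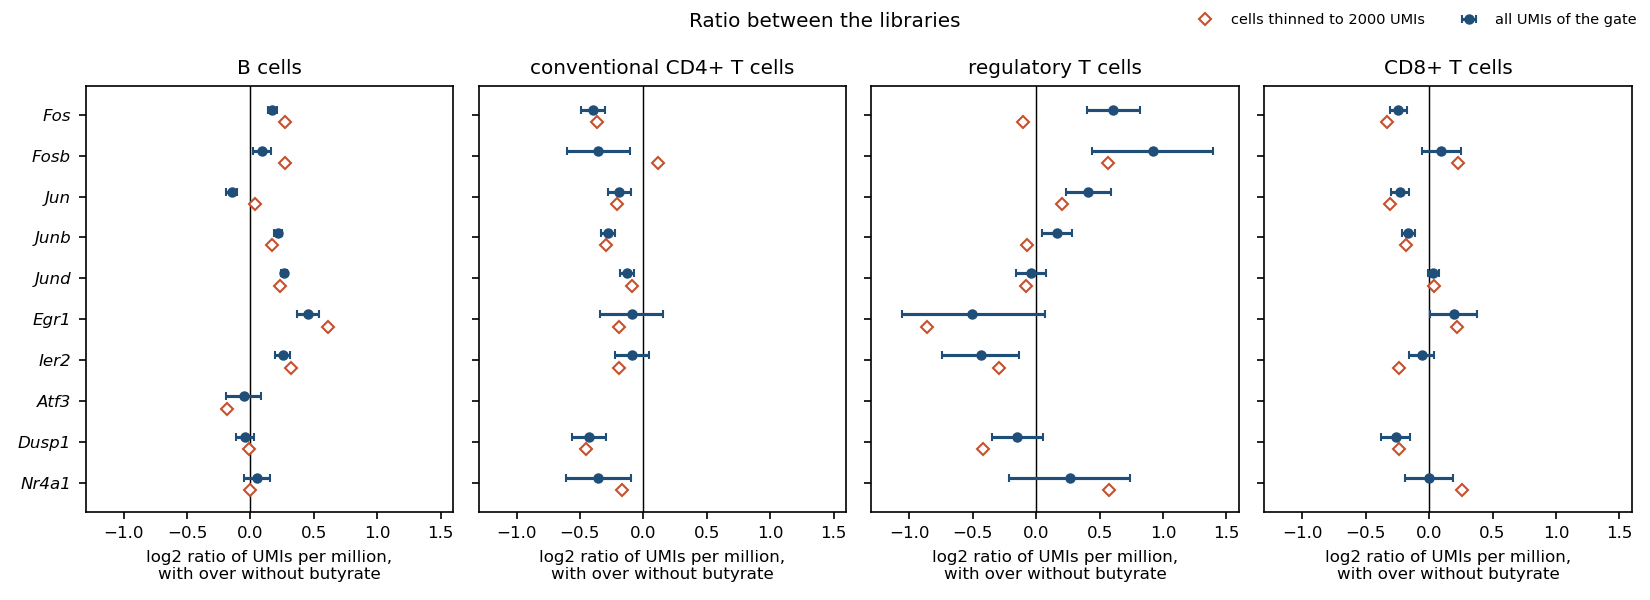
Log2 ratio of CPM, with over without butyrate (pseudocount 10 CPM), for each gene in 4 gates. Filled circles use all UMIs of a gate with a 95% counting interval, open diamonds use cells thinned to 2000 UMIs, and Atf3 is plotted only in B cells. In conventional CD4+ T cells all 9 circles are below 0, and in B cells 7 of 10 are above 0, beside 61.4% of all measured genes. The circle and diamond of Fos in regulatory T cells are on opposite sides of 0, at 0.61 and -0.11.

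In the small regulatory T cell gate the ratios spread most widely. Fosb was at 28.2 CPM without and 62.4 with butyrate (log2 ratio 0.92, 0.44 to 1.39), on 36 and 70 UMIs. Fos had a log2 ratio of 0.61 (0.40 to 0.82), and with butyrate a single cell held 52 of its 426 UMIs. Without the 1% of cells with most Fos UMIs of each library the log2 ratio of Fos was 0.50. The share of thinned cells with a Fos UMI, however, was 40.5% without and 34.5% with butyrate. Each thinned cell counting alike, the log2 ratio of Fos was -0.11 and that of Junb -0.072, against 0.16 (0.04 to 0.28) over all UMIs, so neither direction was stable. Jun was at 360 and 482 (0.41, 0.23 to 0.59), and the share of thinned cells with a Jun UMI was 42.4% and 52.5%, but its thinned log2 ratio was 0.21. Dusp1 had a log2 ratio of -0.15 over all UMIs and -0.42 after thinning. Nr4a1 was at 37.6 and 47.2, Jund at 1021 and 992, Ier2 at 162 and 117 (-0.44, -0.74 to -0.14) and Egr1 at 28.2 and 16.9 on 36 and 19 UMIs (-0.51, -1.06 to 0.07). The summed NK markers in this gate were at 183 CPM without and 19.6 with butyrate. Only 1 of the 4 reached the minimum of 50 UMIs, with a log2 ratio of -2.68. Ncr1 was at 0 UMIs in both libraries and Klrb1c at 0 without butyrate. The part of NK marker genes in the values of this gate was not tested.

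Since the set was selected on these contrasts, the number of genes past a given size is set beside the share of all genes for scale, and nothing is read from it. No member passed a log2 ratio of 0.5 in B cells, conventional CD4+ or CD8+ T cells. In those gates 0.153%, 0.19% and 0.0753% of all genes were higher by at least 0.5, and 0.697%, 0.916% and 0.377% were lower. In regulatory T cells Fos and Fosb were higher by at least 0.5, beside 2.81% of genes, and Egr1 was lower, beside 3.83%. At a log2 ratio of 0.25, 3 genes were higher in B cells (Egr1, Jund and Ier2, with Junb at 0.22 just short of it) and 0 lower, beside 1.44% and 2.61% of genes. In conventional CD4+ T cells 5 were lower (Dusp1, Fos, Nr4a1, Fosb and Junb) and 0 higher, beside 5.56% and 5.06%. In CD8+ T cells 1 was lower (Dusp1, with Fos at -0.24 just short) and 0 higher, beside 2.17% and 1.53%. In regulatory T cells 4 were higher (Fosb, Fos, Jun and Nr4a1) and 2 lower (Egr1 and Ier2), beside 15.7% and 16.1%.

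The difference between lineages was computed gene by gene as the log2 ratio in B cells minus that in conventional CD4+ T cells. It was 0.57 (0.47 to 0.67) for Fos, 0.50 (0.43 to 0.56) for Junb and 0.40 (0.34 to 0.46) for Jund. It was 0.55 (0.29 to 0.81) for Egr1, 0.41 (0.13 to 0.69) for Nr4a1 and 0.39 (0.24 to 0.54) for Dusp1, whose B cell ratios were 0.46, 0.05 and -0.04. For Jun the difference was 0.04 (-0.06 to 0.14) over all UMIs, but without the 1% of cells with most Jun UMIs its log2 ratio was 0.013 in B cells and -0.21 in conventional CD4+ T cells. With 1 library per condition these differences have no replicate check.

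The B cells were also divided by genes outside the set. Most B cells had an Ighd UMI, which marks mature B cells before class switching, and no UMI of the cell cycle gene Mki67 (3782 and 3629 cells). In these Egr1 was at 57.8 and 95.2 CPM (log2 ratio 0.63, 0.54 to 0.73), Fosb at 119 and 150.3 (0.31, 0.24 to 0.39) and Fos at 565 and 687 (0.28, 0.24 to 0.31), each farther from 0 than over all B cells. Jun was at 423 and 436 there, a log2 ratio of 0.04 (-0.00014 to 0.09). Ier2 had a log2 ratio of 0.25, Jund 0.25 and Junb 0.15, the latter pair closer to 0 than over all B cells, and those of Nr4a1 (-0.01), Dusp1 (-0.07) and Atf3 (-0.13) had intervals that included 0.

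The 196 and 153 B cells with neither an Ighd nor an Mki67 UMI were the smaller remainder of the gate outside dividing cells. Egr1 was at 131 and 65.2 CPM in them (log2 ratio -0.90, -1.28 to -0.53), Jun at 679 and 407 (-0.73, -0.89 to -0.56) and Fosb at 169 and 115 (-0.51, -0.82 to -0.20), while Atf3 was at 20.7 and 46.3 (0.88, 0.34 to 1.40). Fos was at 784 and 610 (-0.36, -0.50 to -0.21), but its log2 ratio was 0.26 after thinning. The intervals of Junb, Jund, Ier2, Dusp1 and Nr4a1 included 0. The Atf3 values rested on 25 and 49 UMIs. Cd79b was found in 85.2% and 86.3% of this remainder, Cd3d in 10.7% and 11.8%, and Lyz2 in 3.06% and 5.88%. It was thus less pure than the whole gate, and the part of other cells in its values was not tested.

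B cells with an Mki67 UMI were few, 118 without and 59 with butyrate, and differed in depth, with median UMIs of 16680 and 9944. Jun was at 807 and 247 CPM in them (log2 ratio -1.67, -1.87 to -1.47), Fosb at 284 and 124 (-1.14) and Fos at 793 and 544 (-0.54, and 0.04 after thinning). Junb went the other way, at 250.2 and 404. Over the B cells without an Mki67 UMI the log2 ratio of Jun was -0.012, against -0.15 over all B cells. Plasma cell markers also differed in B cells, where their sum was at 820.4 and 249 CPM. All 3 had log2 ratios below 0, from -1.69 to -0.035, where 61.4% of all measured genes were above 0. The sum was 18248 and 5273 UMIs, of which Jchain, the joining chain of secreted antibodies, held 18039 and 5177. The lower sum thus rested on Jchain, which was found in 4.004% and 1.80% of B cells. The 6 myeloid markers summed to 368 and 492 CPM in B cells, with Lyz2 at 40.3 and 155, and in conventional CD4+ T cells to 143 and 173. In B cells 4 of the 6 had a log2 ratio above 0 and 2 below. The sum there was 8195 and 10422 UMIs, of which Lyz2 held 897 and 3291, so the higher sum rested on Lyz2. In conventional CD4+ T cells 2 of the 4 measured markers were below 0, with Cst3 at 117 and 76.7 CPM. No plasma or myeloid marker was at 0 in B cells, and the part of these cells in the values of all B cells was not tested.

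The genes were next counted together in each thinned cell. B cells held a median of 6 summed UMIs of the 10 genes per 2000 without and 7 with butyrate, and 20.9% and 25.6% of them had at least 5 of the 10 genes detected. Conventional CD4+ T cells held a median of 7 and 5, with 15.7% and 10.0% at 5 genes or more. The lower and upper quartiles were 3 and 11 without and 4 and 13 with butyrate in B cells, and 4 and 9 without and 3 and 8 with butyrate in conventional CD4+ T cells, so the distributions were displaced in opposite directions. CD8+ T cells held a median of 4 and 3 and regulatory T cells 7 and 8, with means of 8.80 and 8.34 in the latter.

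**Figure D3:**
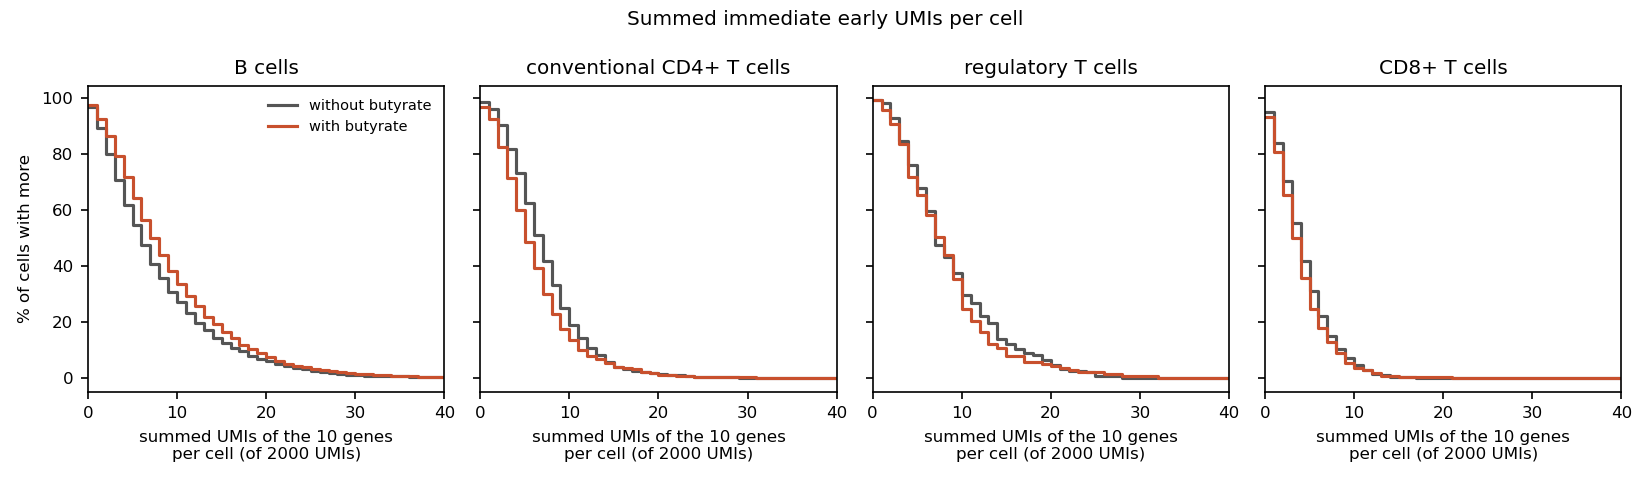
Share of cells (percent, vertical axis) with more than a given number of summed UMIs of the 10 genes (horizontal axis), with every cell thinned to 2000 UMIs, without butyrate in grey and with butyrate in orange. In B cells the orange line lies above the grey line through most of the range, in conventional CD4+ T cells below it up to about 14 UMIs, and in regulatory and CD8+ T cells the lines are closer.

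Detection with Fos differed between the lineages. Among thinned B cells without butyrate, Fosb was found in 28.5% of cells with a Fos UMI and 8.0% of cells without, Jun in 49.6% and 26.3%, and Egr1 in 9.95% and 4.70%. With butyrate the pairs were 27.9% and 12.3% for Fosb, 50.7% and 28.2% for Jun, and 15.2% and 5.27% for Egr1. The gaps of Fosb, Jun, Junb and Jund were smaller in conventional CD4+ T cells in both libraries, with Jun in 47.7% and 42.0% without butyrate and in 49.2% and 36.7% with it. Dusp1 without butyrate had the wider gap there, at 31.8% and 23.0% against 23.5% and 18.1% in B cells. With butyrate its gap was the narrower there, at 22.0% and 18.4% against 24.3% and 15.1% in B cells. Gaps are in percentage points, and Fosb, at 8.4% and 3.63% in conventional CD4+ T cells with butyrate, was at a lower level there than in B cells. Without butyrate, Egr1 in conventional CD4+ T cells was found in 3.84% of cells with and 5.50% of cells without a Fos UMI. Across thinned B cells the Pearson r with Fos UMIs was 0.34 and 0.25 for Fosb and 0.35 and 0.32 for Jun, over cells that share a library and a fixed depth, and it is given as a description.

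**Figure D4:**
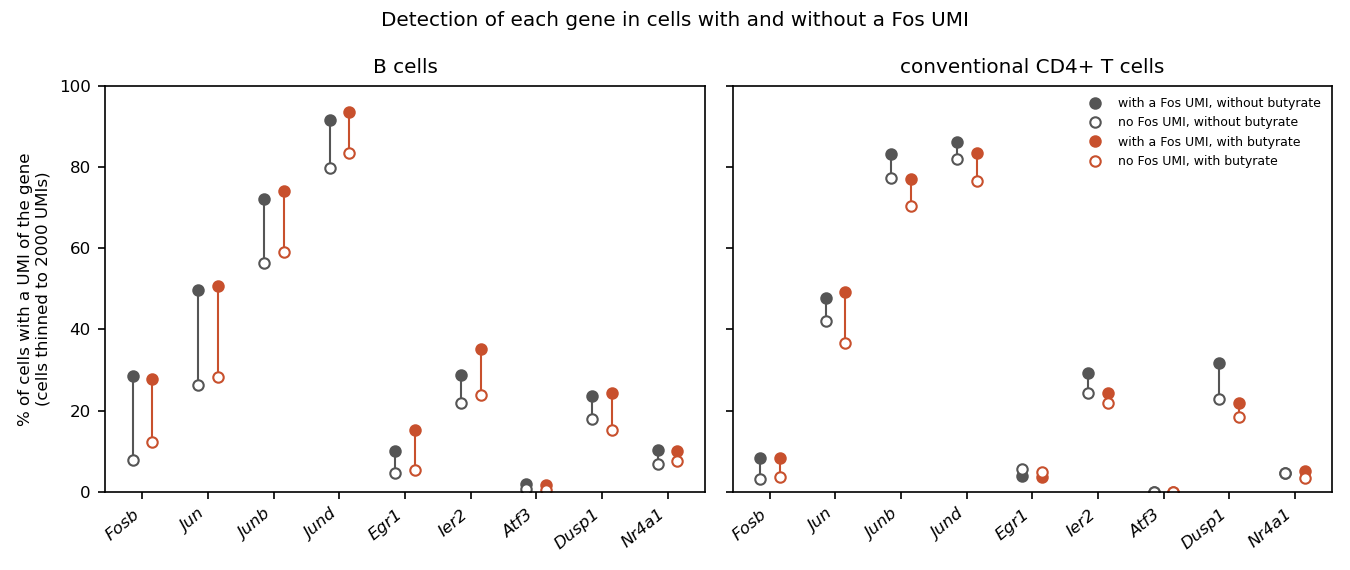
Share of thinned cells (percent) with a UMI of each gene, in cells with a Fos UMI (filled) and without (open), in B cells and conventional CD4+ T cells, without butyrate in grey and with butyrate in orange. The gap of Fosb is wider in B cells, where it stands at 28.5% and 8.0% without butyrate, than in conventional CD4+ T cells, where it stands at 8.22% and 3.14%. That of Dusp1 is wider in conventional CD4+ T cells without butyrate and narrower there with butyrate.

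A list of 31 other genes classed as immediate early was set beside the members, and whether each is induced in these cells was not tested. In B cells 15 of them had a log2 ratio above 0 and 16 below, with a median of -0.02, beside 61.4% of all measured genes above 0. Zfp36, which binds AU-rich elements and speeds decay, was at 264 and 368 CPM there (0.46, 0.42 to 0.51), Klf2 at 1331 and 1546 (0.21), Btg2 at 265 and 245 (-0.11) and Rgs1 at 102 and 73.1 (-0.43). In conventional CD4+ T cells 22 of 27 measured were below 0, where 51.9% of all measured genes were above 0. Their median was -0.18, with Tnfaip3 at 156 and 95.3 (-0.66, -0.81 to -0.51) and Cd69 at 394 and 284 (-0.46, -0.55 to -0.36). Zfp36 stood at 148.4 and 148.2 and Rgs1 at 128 and 135 in those cells.

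Of 17 targets of antigen receptor signals, 7 of which are also in the list of other immediate early genes, 15 were measured in B cells with a median of -0.01. In conventional CD4+ T cells 10 of 15 were below 0 with a median of -0.24, where 51.9% of all measured genes were above 0. Cd83 was at 276 and 367 CPM in B cells (log2 ratio 0.40), Cd69 at 472 and 509 and Ccr7 at 152 and 136. The other AP-1 family genes (Fosl2, Batf, Maf and others, 15 in all) had medians of -0.01 in B cells and -0.08 in conventional CD4+ T cells, over 12 and 9 measured genes, with Atf4 at 137 and 165 in B cells. The MAP kinases and factors that feed these genes, 25 in all, had medians of 0.05 and -0.02, with Mef2c at 997 and 1090.3 in B cells. Both medians lay close to those over all genes.

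Heat shock and interferon response genes gave values for other programmes in the same cells. The 10 heat shock genes had medians of -0.18 in B cells and -0.11 in conventional CD4+ T cells, and Dnaja1, a partner of Hsp70, was at 453 and 314 CPM in B cells. All 17 measured interferon response genes were below 0 in B cells and in conventional CD4+ T cells, with medians of -0.48 and -0.77, and Bst2 was at 127 and 76.2 in B cells. Unlike the members, both lists thus had medians below 0 in B cells and in conventional CD4+ T cells. Whether these programmes had a part in the values of the members was not tested.

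**Figure D5:**
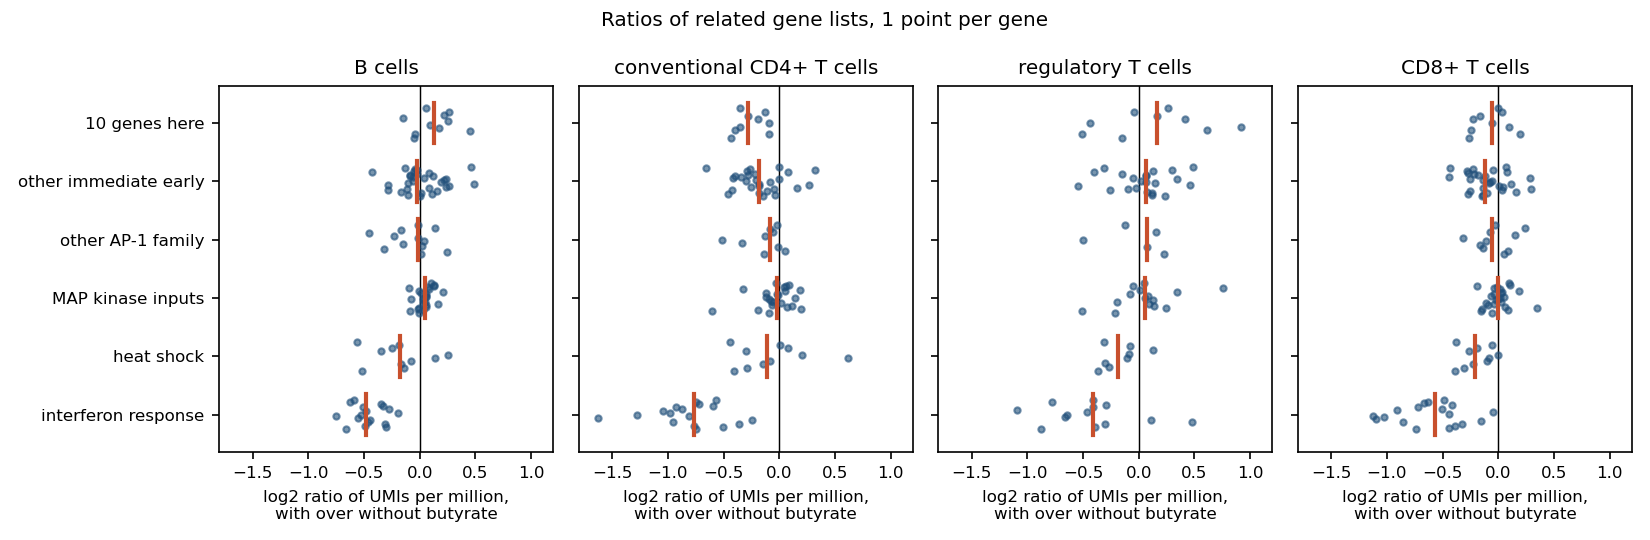
Log2 ratio of CPM, with over without butyrate, for each measured gene of 6 lists in 4 gates, 1 point per gene, with the list median as an orange bar. The 10 genes here have medians of 0.13 in B cells and -0.28 in conventional CD4+ T cells, while interferon response genes have medians below 0 in all 4 gates, at -0.48 in B cells and -0.77 in conventional CD4+ T cells.

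Finally, genes were ranked by how closely their level across 8 points (4 gates in 2 libraries) followed the mean of the members. Of 3407 genes compared, the 5 nearest were Eif1 (r = 0.996, 1544 to 2059 CPM), Scaf11 (0.987), Arhgap25 (0.986), Marcksl1 (0.983) and Nrd1 (0.983). Eif1 encodes a translation initiation factor and Marcksl1 a protein of the membrane cytoskeleton. Among the members themselves r ran from 0.97 for Jund and 0.95 for Nr4a1 to 0.55 for Junb and 0.36 for Dusp1, each being part of the mean. The points share libraries, and r is given without a test.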

How the data were processed

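Single-cell RNA was measured in 2 libraries made with a 3′ kit. The authors aligned and counted reads with Cell Ranger 6.0.1 on mm10, per the labels, and the deposited values are raw counts of UMIs with no normalization. The members and the gene lists were chosen with earlier results of these data known.

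Low-quality cells (mitochondrial share above 10%, or fewer than 200 genes) were discarded first, 186 and 327 of them. Likely doublets were then discarded by rank of the Scrublet score in scanpy 1.11.5, in proportion to library size (0.8% for each 1000 cells), 721 and 592 of them. Among the cells kept, 455 and 460 still held UMIs of both Cd79a and Cd3e and entered no gate. UMIs were summed per gate and library, since cells are not replicates, and summed levels were compared as log2 ratios of CPM after adding 10 CPM. A gene was measured in a gate if its sums reached 50 UMIs together. The added 10 CPM draws ratios of low genes towards 0. Intervals at 95% were exact Poisson for levels, Clopper-Pearson for shares and conditional binomial for ratios, and for a count of 0 the limit was 3 counts. No p-value was computed, because each condition had 1 library. Simulated counts with known changes were used to check the ratios. Python 3.11.15, numpy 2.4.6, pandas 2.3.3, scipy 1.17.1, R 4.3.3 and edgeR 4.0.16 (TMM factors only) were used.

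Named genes were all members, the 2 highest and 2 lowest ratios of each list in B cells and in conventional CD4+ T cells at 100 CPM or more, the 5 genes nearest in level, and gate and marker genes. Other genes of a list are named with no value. Gene models came from GENCODE M21 and promoters from RefSeq.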

Additional observations from a re-analysis of the deposited data

Results flagged for a closer look

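Several genes had counting intervals on opposite sides of 0 in B cells and in a T cell gate. The difference of log2 ratios, B cells minus the other gate, was 0.57 for Fos, 0.45 for Fosb, 0.50 for Junb and 0.40 for Jund against conventional CD4+ T cells. Against CD8+ T cells it was 0.42 for Fos and 0.38 for Junb. Against regulatory T cells it was 0.69 for Ier2 and -0.56 for Jun. Each gate had 1 library per condition, so these differences were not tested over samples, and the set had been selected for a difference of this kind between B and T cells. The value of Fosb in conventional CD4+ T cells and that of Jun in B cells changed sign when cells were thinned.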

How the results depend on the processing

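Of 447 values of single genes under up to 13 alternatives, 407 lay inside the interval given with the main value, 35 lay outside it and 5 with an interval on 1 side of 0 changed sign. The alternatives of a minimum of 200 UMIs and of no minimum only changed which genes were measured. Their single-gene values equal the main ones by construction and are counted among the 407. With each cell thinned to 2000 UMIs, Jun in B cells was 0.037, Fosb in conventional CD4+ T cells 0.12, and Fos and Junb in regulatory T cells -0.11 and -0.072. Without the 1% of cells with most UMIs of a member, an alternative chosen after seeing the data, Jun in B cells was 0.013. The following genes kept their direction under every alternative that could change it. In B cells they were Fos, Fosb, Junb, Jund, Egr1 and Ier2, above 0, and Atf3 and Dusp1, below 0. In conventional CD4+ T cells they were Fos, Jun, Junb, Jund, Ier2, Dusp1 and Nr4a1, below 0. In CD8+ T cells Jund and Egr1 were above 0, and Fos, Jun, Junb, Ier2 and Dusp1 below 0. In regulatory T cells, where measured, Fosb, Jun and Nr4a1 were above 0, and Jund, Egr1, Ier2 and Dusp1 below 0. The main intervals of several included 0, among them Atf3 and Dusp1 in B cells and Ier2 in conventional CD4+ T cells.

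The median in B cells was 0.20 thinned, 0.081 with median-of-ratios scaling, 0.19 without cells with an Mki67 UMI (chosen after seeing the data) and 0.23 without the top 1% of cells. The median in regulatory T cells was 0.32 with stricter gates and -0.10 thinned, each over the genes still measured. The number of members past 0.5 was 1 in conventional CD4+ T cells at 5% mitochondrial UMIs. In B cells it was 1 with stricter gates, thinned, with a pseudocount of 1, without Mki67 and without the top 1%. In regulatory T cells it was 1 with stricter gates, 0 thinned, 1 at a minimum of 200 UMIs and 5 without the top 1%. Thinned, Fosb, Egr1 and Nr4a1 fell under the minimum of 50 UMIs in that gate and were not counted. Their thinned log2 ratios were 0.57, -0.86 and 0.57. The minimum of 200 UMIs left out the same genes. At a threshold of 0.25 it was 3 in B cells, 5 in conventional CD4+, 6 in regulatory and 1 in CD8+ T cells. Apart from genes left out by a minimum, the cause of each move was not tested. No scaling moved the median of all genes by over 0.1.

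With 1 library per condition, no replicate was left out and the spread between mice was not estimated. No paired analysis was possible because there was 1 library per condition. Regulatory T cells were few, at 159 and 142, and of the 4 main gates Atf3 had a ratio in B cells alone.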
